A study of Mus musculus with 23 samples.

Results

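The 32 genes described here are visceral endoderm genes: transcription factors and signals, receptors and adaptors of endocytosis, apolipoproteins and their lipid-handling enzymes, and secreted plasma proteins. They were taken by symbol from the table of raw counts per gene, which holds 23725 gene lines, and each of the 32 was found on exactly 1 line. The rule that lists them uses no measured value, but the genes were chosen with earlier results of these data known. The libraries come from mouse embryos at stage E6.25 of embryonic development, separated into epiblast (E), from which the embryo proper forms, and extra-embryonic tissue (ExE). There were 6 groups, each of a tissue and a genotype of Tet1, which encodes an enzyme that oxidises 5-methylcytosine: wild type (wt), heterozygous for a gene-trap allele (Tet1gt/wt) and homozygous (Tet1gt/gt), with 4 libraries per group and 3 in homozygous ExE. Per the labels' protocols, a library is a pool of lysates from 6 or more embryos of 2 to 3 litters, and E and ExE pools with the same number share litters in 3 of 4 pools. The site of the trap within Tet1 and the way the visceral endoderm was handled in the dissection were not stated in any label used here.

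The visceral endoderm is an epithelium that covers both the epiblast and the extra-embryonic ectoderm of the early mouse embryo. It takes up maternal nutrients by endocytosis, packages lipid into lipoproteins and secretes plasma proteins, tasks that the liver, gut and yolk sac perform later. GATA4, GATA6, SOX17, FOXA2 and HNF4A are among the transcription factors of this layer, and its anterior part secretes inhibitors that pattern the epiblast beneath it. Neither E nor ExE is named in the labels for this layer. In pooled lysates, fewer cells of a type and less RNA per cell cannot be told apart.

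Each library held between 4912215 and 9494814 counts and between 13028 and 14360 genes with a count. Levels are counts scaled to library size by TMM, in the usual CPM unit, on which 3 counts, the limit that a count of 0 allows, stand for 0.312 to 0.684 CPM depending on the library. This limit covers counting error only. As a check of the labels, Tet1 ranged from 55.3 to 113 CPM in the homozygous and from 127 to 197 CPM in the wt E pools. In ExE, Tet1 ranged from 21.5 to 37.8 CPM in homozygous and from 77.1 to 110 CPM in wt pools. The heterozygous ExE pools, at 39.3 to 57.1 CPM, lay between these ranges. The heterozygous E pools, at 66.7 to 147 CPM, overlapped with both homozygous and wt E pools, so Tet1 does not check their label. The overlap with homozygous pools rests on pool 4, at 66.7 CPM, while the other heterozygous E pools were at 137 to 147 CPM. In 3 libraries (ExE homozygous pool 3, E homozygous pool 3 and E heterozygous pool 4) short transcripts read higher than elsewhere, with a slope of deviation on log2 transcript length of -0.39 to -0.32, against -0.11 to 0.13 in the other 20. The longest Tet1 transcript has 14369 bp. Both of these E pools held the least Tet1 of their group (55.3 and 66.7 CPM), while ExE homozygous pool 3, at 24.2 CPM, did not. The part of transcript length in these Tet1 levels was not tested. ExE wt pool 1 stood apart from the other ExE libraries. Its mean log2 CPM was 6.61 over 12 epiblast genes, against 4.01 to 6.36 in the other 10 ExE libraries, and 6.55 over 15 trophoblast genes, against 7.01 to 7.52. The mean of Y-linked genes was -0.14 in that pool, 2.12 to 3.83 in the other ExE libraries and 4.98 in E wt pool 1, its partner by number. Results that rest on it are given with and without it.

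The 32 genes were high in few libraries, and in these most of them were high together. Their mean log2 CPM was 4.49, 0.81, 1.86 and 0.68 in E wt pools 1, 2, 4 and 5. It was 0.16, 0.0045, 0.65 and 0.095 in E heterozygous pools 2, 3, 4 and 5, and 3.01, 3.25, 0.71 and 1.15 in E homozygous pools 1, 2, 3 and 4. E wt pool 1 and E homozygous pools 1 and 2 were thus above the other 9 E libraries, and the 4 heterozygous pools were at or below 0.65. In ExE the mean log2 CPM was 3.03, -0.29, 0.87 and -0.09 in wt pools 1, 2, 4 and 5, 0.11, 0.52, 0.18 and 0.77 in heterozygous pools 1, 2, 3 and 5, and -0.39, 1.16 and 0.54 in homozygous pools 1, 3 and 4. ExE wt pool 1 alone among the 11 ExE libraries reached the levels of the 3 high E libraries. E and ExE wt pool 1 were both the highest of their tissue, while E homozygous pool 1, at 3.01, had a partner in ExE at -0.39. All values below follow this order of pools.

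**Figure D1:**
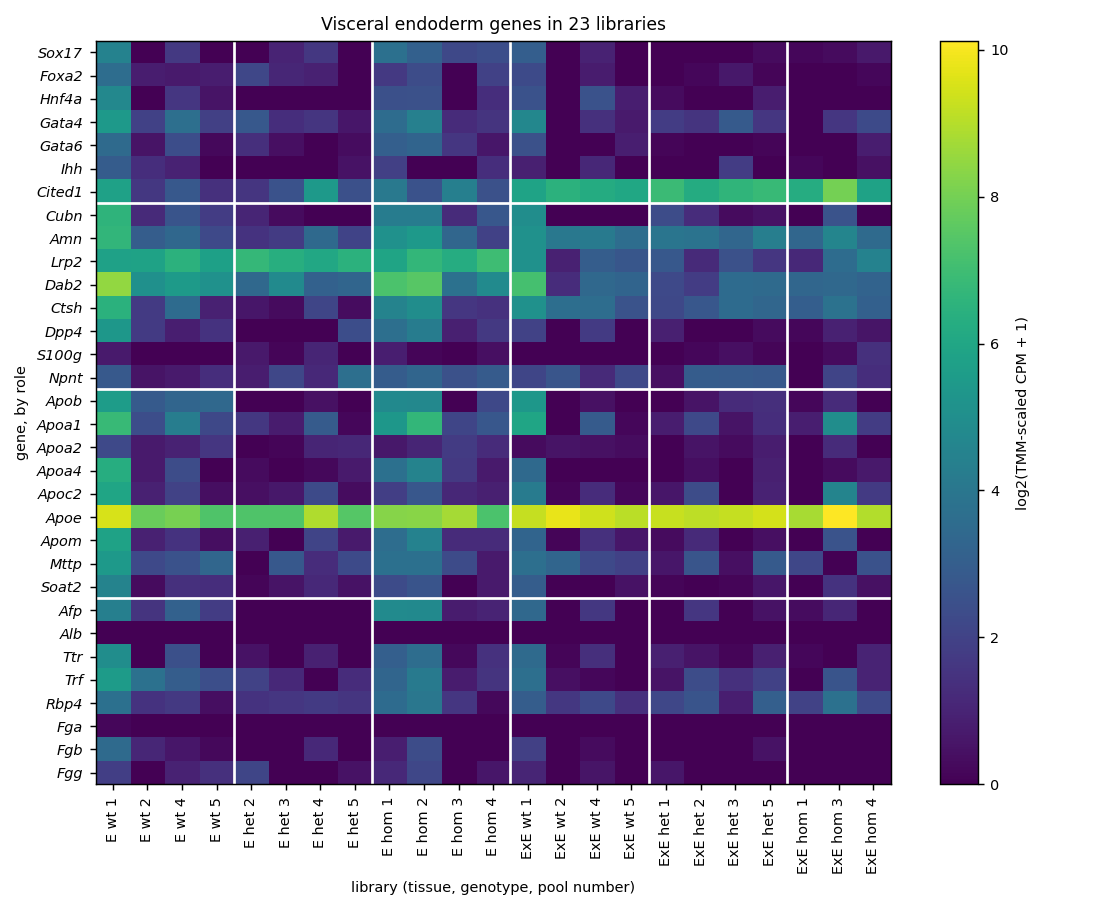
Level of each of the 32 genes (rows, grouped by role) in each of the 23 libraries (columns, by tissue, genotype and pool number), as log2(CPM + 1) on a colour scale. Columns E wt 1, E hom 1, E hom 2 and ExE wt 1 are bright over most rows, while the rows of Cited1 and Lrp2 separate the tissues and the row of Apoe is bright throughout.

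By gene, E wt pool 1 was the highest of the 12 E libraries for 25 of the 31 genes with a count in E, a place it took for 8.40% of all 13595 genes tested. For 17 of the 31, the 3 highest E libraries were E wt pool 1 and E homozygous pools 1 and 2, as they were for 136 of the 13595 genes (1.00%). In ExE, wt pool 1 was the highest library for 22 of 30 genes with a count there, against 13.9% of all genes. The libraries named here were picked by the mean of these same genes, so these counts describe the pattern and are no test of it. The exceptions in ExE were Cited1, Apoa2, Apoc2, Apoe and Rbp4, highest in homozygous pool 3, and Ihh, Npnt and S100g, highest in 3 other pools.

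The summed level was taken over 29 genes, without Apoe, whose counts outweigh those of the others in most libraries, and without Cited1 and Lrp2, which separate the tissues. It was 1355, 86.9, 161 and 83.9 CPM in E wt pools. It was 37.6, 49, 50.7 and 40.3 CPM in E heterozygous and 453, 615, 56.0 and 79.6 CPM in E homozygous pools. The E heterozygous pools all lay below the E wt pools and below the E homozygous pools, and the wt and homozygous ranges overlapped. Over all 32 genes this separation was lost, with sums of 296 to 634 CPM in heterozygous, 297 to 2181 CPM in wt and 364 to 1038 CPM in homozygous E pools. In ExE the sum of the 29 was 488, 45.6, 72.8 and 36.6 CPM in wt, 37.0, 59.2, 51.7 and 73.2 CPM in heterozygous and 33.5, 140 and 51.9 CPM in homozygous pools. The 3 ExE genotypes overlapped. ExE homozygous pool 3, at 140 CPM, is 1 of the 3 libraries in which short transcripts read high, and its mean over 10 maternal decidua genes was 2.66 log2 CPM, against -1.18 to 0.68 in the other ExE libraries. The part of either in its level was not tested.

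**Figure D2:**
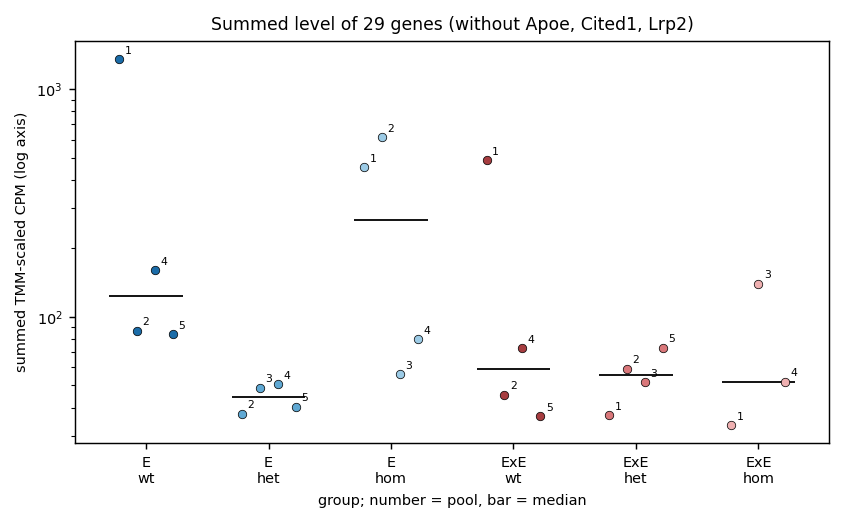
Summed level of 29 of the genes (without Apoe, Cited1 and Lrp2) in each library, in TMM-scaled CPM on a log axis, by tissue and genotype, with each point labelled by its pool number and a bar at the group median. E wt pool 1 lies at 1355 CPM, E homozygous pools 1 and 2 and ExE wt pool 1 at 453 to 615, and all other libraries between 33.5 and 161.

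Among the regulators, Gata4, which encodes a zinc-finger factor of the endoderm, was highest in E wt pool 1 and in E homozygous pool 2 among the E libraries. Gata4 stood at 43.3, 2.86, 11.8 and 2.81 CPM in E wt, at 5.95, 1.5, 1.94 and 0.525 CPM in E heterozygous, and at 11.1, 20.2, 1.38 and 1.87 CPM in E homozygous pools. Its ExE values were 24.7, 0, 1.66 and 0.676 CPM in wt, 2.52, 1.86, 6.36 and 2.02 CPM in heterozygous and 0, 2.05 and 3.78 CPM in homozygous pools. The 3 genotypes overlapped in both tissues. Sox17, a factor that drives endoderm differentiation, was at 21.3, 0, 2.17 and 0 CPM in E wt, 0, 1.04, 2.11 and 0 CPM in E heterozygous and 12.4, 7.60, 3.63 and 4.24 CPM in E homozygous pools. In ExE, Sox17 was at 7.08, 0, 0.95 and 0 CPM in wt, 0, 0, 0 and 0.213 CPM in heterozygous and 0.135, 0.228 and 0.629 CPM in homozygous pools. Every E homozygous pool thus held more Sox17 than every E heterozygous and every ExE homozygous pool, and the E wt pools lay on both sides of the homozygous range. Hnf4a, a nuclear receptor of the hepatocyte programme, was at 25.1 CPM in E wt pool 1, 4.60 and 4.69 CPM in E homozygous pools 1 and 2, and 0 in all 4 E heterozygous and all 3 ExE homozygous pools. ExE wt pools 1 and 4 held 4.92 and 4.87 CPM of Hnf4a, and E wt pool 4 held 2.03 CPM. Gata6 and Foxa2, a forkhead factor, peaked in E wt pool 1 at 10.3 and 11.4 CPM, and Ihh, a secreted signal, peaked there at 6.70 CPM.

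Cited1, which encodes a transcriptional coregulator, did not share this pattern. It was at 53.9, 2.09, 5.97 and 1.63 CPM in E wt, 1.91, 4.84, 42.1 and 4.60 CPM in E heterozygous and 16.3, 4.79, 19.7 and 4.75 CPM in E homozygous pools. In ExE it was at 57.4, 89.9, 73.0 and 63.8 CPM in wt, 117, 73.8, 97.8 and 112 CPM in heterozygous and 76.2, 259 and 55.6 CPM in homozygous pools. All 11 ExE libraries were thus above all 12 E libraries. Within E, wt pool 1 held the most Cited1, but E heterozygous pool 4 and E homozygous pool 3, where the other genes were low, came next. These are 2 of the 3 libraries in which short transcripts read high. The mean over 15 trophoblast genes was 4.46 log2 CPM in E wt pool 1, 5.14 in E heterozygous pool 4, 3.83 in E homozygous pool 1 and 4.43 in E homozygous pool 3, against 0.95 in E homozygous pool 2. In E wt pool 4 it was 3.71, with Cited1 at 5.97 CPM. The part of the trophoblast level in Cited1 was not tested.

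The genes of uptake serve the apical endocytosis for which this epithelium is known. Dab2, an adaptor protein that links the receptors megalin and cubilin to the endocytic machinery, was at 361, 33.2, 45.3 and 34 CPM in E wt, 9.67, 27.4, 7.92 and 8.80 CPM in E heterozygous and 153, 179, 12.6 and 27.5 CPM in E homozygous pools. In ExE it was at 141, 1.44, 9.62 and 8.52 CPM in wt, 3.73, 2.44, 10.5 and 10.3 CPM in heterozygous and 9.05, 9.80 and 8.43 CPM in homozygous pools. The 4 E wt pools lay above the 4 E heterozygous pools, and the E homozygous pools overlapped with both groups. Amn encodes amnionless, which carries cubilin to the cell surface. Its E values were 101, 6.92, 9.49 and 3.70 CPM in wt, 1.81, 2.42, 10.0 and 3.15 CPM in heterozygous and 33.4, 42.7, 9.15 and 2.89 CPM in homozygous pools. ExE values of Amn were 33.6, 15.4, 16.6 and 11.2 CPM in wt, 14.1, 13.3, 9.27 and 19.1 CPM in heterozygous and 9.05, 23.5 and 10.2 CPM in homozygous pools. Amn was therefore present in every ExE library, also in those with little Dab2, and the 3 high E libraries exceeded all ExE libraries other than wt pool 1. The gene for cubilin itself, Cubn, was at 95 CPM in E wt pool 1, 18.1 and 18.2 CPM in E homozygous pools 1 and 2 and 29.8 CPM in ExE wt pool 1. In the other libraries Cubn lay between 0 and 5.77 CPM.

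Lrp2, which encodes megalin, a large endocytic receptor, followed the tissue. Lrp2 was at 54.0, 56.3, 90.5 and 53.1 CPM in E wt, 106, 80.4, 65.5 and 90.0 CPM in E heterozygous and 58.4, 102, 75.6 and 127 CPM in E homozygous pools. Its ExE values were 33.4, 0.886, 7.01 and 5.54 CPM in wt, 5.92, 1.29, 4.69 and 2.02 CPM in heterozygous and 1.22, 10.9 and 21.5 CPM in homozygous pools. The 12 E libraries were all above the 11 ExE libraries, and E wt pool 1, with the most Dab2, held about as much Lrp2 as E wt pools 2 and 5. Of the other surface genes, Ctsh, a lysosomal cysteine protease, peaked at 88.1 CPM in E wt pool 1 and had ExE values of 3.62 CPM or more throughout. Dpp4, a surface peptidase, peaked at 39.7 CPM in the same pool and reached 3.00 CPM in ExE wt pool 1. Npnt, an extracellular matrix protein, was highest in E heterozygous pool 5 at 11.8 CPM, and S100g, a calcium-binding protein, stayed at or below 1.64 CPM in all libraries.

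**Figure D3:**
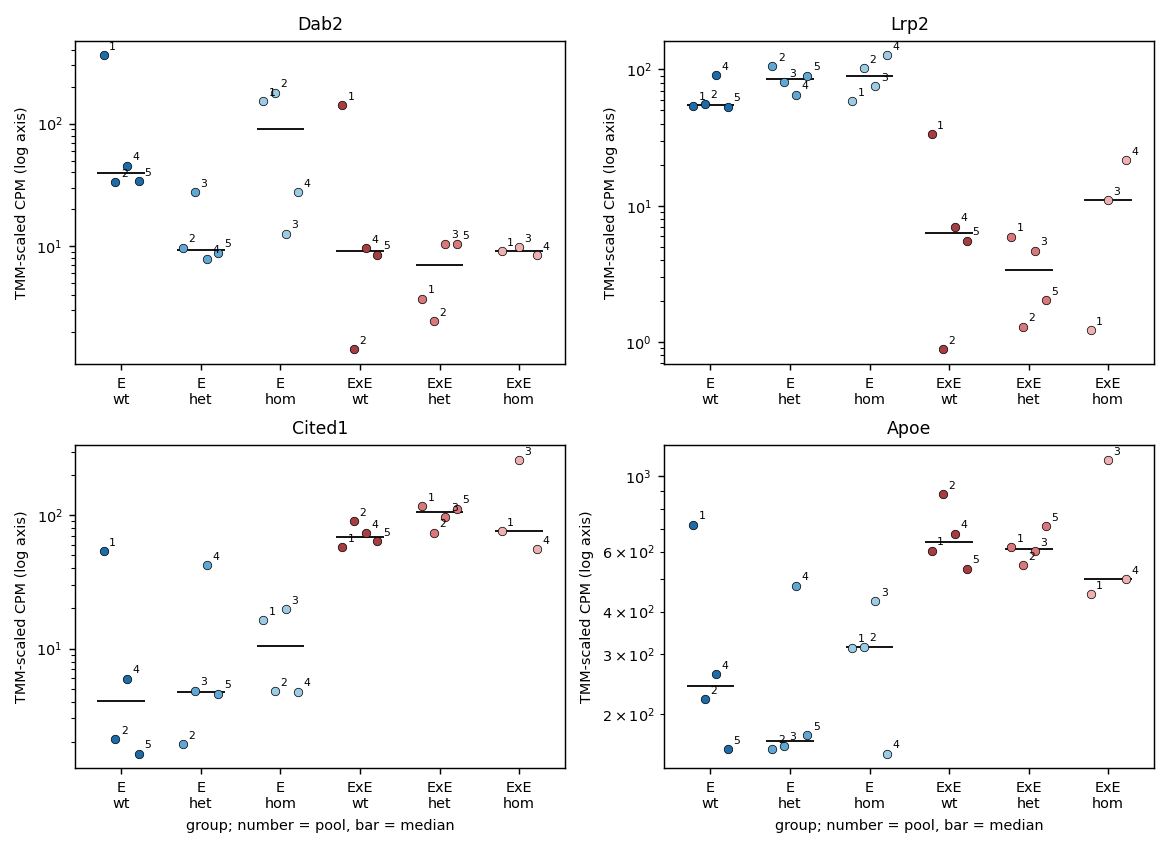
Level of Dab2, Lrp2, Cited1 and Apoe in each library, in TMM-scaled CPM on log axes, by tissue and genotype, with each point labelled by its pool number and a bar at the group median. Dab2 is highest in pools E wt 1, E hom 1, E hom 2 and ExE wt 1, Lrp2 is higher in every E than in every ExE library, Cited1 is the reverse, and Apoe is present at 153 CPM or more throughout.

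Of the lipoprotein genes, Apoe, whose product is a ligand of lipoprotein receptors, had the highest level per transcript length. In E wt pool 1 Apoe was at 510 CPM per kb of its longest transcript. On that scale Apoa1 followed at 109, Apoc2 at 84.6, Dab2 at 77.4, Amn at 59.1, Apom at 55.5 and Cited1 at 49.4. Apoe was at 718, 221, 263 and 158 CPM in E wt, 159, 162, 476 and 173 CPM in E heterozygous and 313, 316, 428 and 153 CPM in E homozygous pools. In ExE it was at 603, 885, 677 and 534 CPM in wt, 618, 548, 601 and 713 CPM in heterozygous and 449, 1112 and 497 CPM in homozygous pools. Apoe made up 30.4% to 75.1% of the summed counts of the 32 genes in the E libraries and 51.0% to 86.6% in the ExE libraries. It was above the other pools of its group in the 3 libraries in which short transcripts read high.

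Apoa1, the main protein of high-density lipoprotein, stood at 113, 4.28, 18.4 and 3.55 CPM in E wt, 2.12, 0.691, 6.51 and 0.131 CPM in E heterozygous and 40.4, 102, 3.28 and 5.77 CPM in E homozygous pools. Its ExE values were 60.5, 0, 6.53 and 0.135 CPM in wt, 0.767, 3.73, 0.447 and 1.49 CPM in heterozygous and 0.810, 30.5 and 2.52 CPM in homozygous pools. The genotypes overlapped in both tissues. Apob, the structural protein of chylomicrons and very-low-density lipoprotein, was at 47.9, 6.26, 8.95 and 9.62 CPM in E wt, 0, 0, 0.352 and 0 CPM in E heterozygous and 27.0, 25.2, 0 and 3.56 CPM in E homozygous pools. In ExE, Apob was at 39.5, 0, 0.356 and 0 CPM in wt, 0, 0.430, 1.34 and 1.60 CPM in heterozygous and 0.135, 1.37 and 0 CPM in homozygous pools. All 4 E wt pools had Apob above the E heterozygous pools, of which 3 had no count. Mttp, which loads lipid onto APOB, peaked in E wt pool 1 at 43.1 CPM, and Soat2, which esterifies cholesterol, at 22.2 CPM. Apom, a carrier of sphingosine 1-phosphate, peaked there at 56.3 CPM, Apoa4 at 77.3 CPM and Apoc2, an activator of lipoprotein lipase, at 61.5 CPM, while Apoa2 stayed at or below 3.68 CPM in all libraries.

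Several of these genes are neighbours in the genome, and the pairs did not all behave alike. On chromosome 5 (GRCm38), Alb and Afp lie 14134 bp apart. Afp encodes alpha-fetoprotein, a fetal serum protein, and Alb encodes serum albumin, which had 0 counts in all 23 libraries. Apoa1 and Apoa4 lie 10229 bp apart on chromosome 9 and were both highest in E wt pool 1 among E libraries and in ExE wt pool 1 among ExE libraries. Apoc2 and Apoe lie 18167 bp apart on chromosome 7. Apoc2 was at 0.263 to 3.87 CPM in the 9 E libraries other than the 3 high ones, where Apoe was at 153 to 476 CPM. The fibrinogen chain genes Fgg, Fga and Fgb lie within a short stretch of chromosome 3, where gaps of 11026 and 6513 bp separate them. Fga had 1 count in all libraries together, while Fgb reached 10.4 CPM in E wt pool 1 and Fgg 3.44 CPM in E homozygous pool 2.

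To show what the neighbours carry at their starts, up to 250 bases before the transcription start are given below for the pairs on chromosomes 5, 9 and 7, from RefSeq on GRCm38.p6, 5′ to 3′ on the strand of the gene. Where the annotated starts differ, only the bases before both are printed, which shortens those of Apoa1 and Apoa4. A start was found for 25 of the 32 genes. Capitals mark matches, on either strand, to the motifs searched: AGATAA or TGATAA or AGATAG or TGATAG for GATA factors, GTTAAT for the core of the HNF1 site, TGTTTAC or TGTTTGC for FOXA, and CAAAGTCCA or CAAAGGTCA or CAAAGTTCA for HNF4. The stretches are chr5:90490464-90490713 for Afp and chr5:90460620-90460869 for Alb on the plus strand, chr9:46228380-46228579 for Apoa1 and chr9:46240594-46240695 for Apoa4 on the plus strand, and chr7:19677942-19678191 for Apoc2 and chr7:19699189-19699438 for Apoe on the minus strand.
Afp: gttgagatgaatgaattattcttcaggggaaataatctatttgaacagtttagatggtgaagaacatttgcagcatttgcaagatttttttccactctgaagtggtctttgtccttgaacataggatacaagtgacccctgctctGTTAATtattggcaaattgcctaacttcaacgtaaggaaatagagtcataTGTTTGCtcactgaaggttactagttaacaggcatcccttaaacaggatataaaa
Alb: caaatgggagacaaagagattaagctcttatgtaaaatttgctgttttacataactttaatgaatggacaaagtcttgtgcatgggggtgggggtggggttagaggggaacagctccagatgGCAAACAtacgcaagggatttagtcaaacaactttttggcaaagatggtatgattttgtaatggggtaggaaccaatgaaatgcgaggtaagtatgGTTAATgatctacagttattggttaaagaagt
Apoa1: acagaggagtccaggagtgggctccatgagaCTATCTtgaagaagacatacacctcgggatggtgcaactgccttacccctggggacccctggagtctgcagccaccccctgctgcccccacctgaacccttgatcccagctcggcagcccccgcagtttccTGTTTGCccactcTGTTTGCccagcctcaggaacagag
Apoa4: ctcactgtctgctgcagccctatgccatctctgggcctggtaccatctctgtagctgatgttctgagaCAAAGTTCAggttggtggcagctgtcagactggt
Apoc2: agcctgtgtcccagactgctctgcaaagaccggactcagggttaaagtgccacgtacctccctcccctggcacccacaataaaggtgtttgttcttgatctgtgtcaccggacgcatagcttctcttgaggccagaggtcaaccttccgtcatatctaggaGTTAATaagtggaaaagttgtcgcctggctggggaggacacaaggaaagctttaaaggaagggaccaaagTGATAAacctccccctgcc
Apoe: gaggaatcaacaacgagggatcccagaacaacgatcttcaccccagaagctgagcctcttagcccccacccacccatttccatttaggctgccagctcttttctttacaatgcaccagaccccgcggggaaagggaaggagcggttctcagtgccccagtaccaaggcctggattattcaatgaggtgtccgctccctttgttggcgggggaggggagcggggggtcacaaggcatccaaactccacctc

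Afp, with counts in 14 libraries, and Alb, with none, both held an HNF1 core and a FOXA match. Apoa1 held 1 GATA and 2 FOXA matches, Apoa4 held 1 HNF4 match in its shorter stretch, Apoc2 held 1 GATA match and 1 HNF1 core, and Apoe held none of these letters. Over the 250 bases before the start, FOXA letters were in 7 of the 25 genes (28%), each taken at 1 start. They were in 7.29% of 32851 windows of the same length before all listed starts. These windows include those of the 25 genes and can hold more than 1 per gene. The HNF1 core was in 5 (20%) against 6.43%. GATA letters were in 6 of 25 (24%) against 26.5%, and HNF4 letters in 1 of 25 (4%) against 1.14%. None of the matches in the 6 printed stretches overlapped another. These are matches of letters in a short window and show no binding.

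The secreted plasma proteins are those that the fetal liver later supplies. Afp was at 19.7, 1.87, 7.87 and 2.51 CPM in E wt pools, 0 in all 4 E heterozygous pools and 27.9, 26.9, 0.691 and 1.02 CPM in E homozygous pools. In ExE, Afp was at 9.60, 0, 2.14 and 0 CPM in wt, 0, 2.01, 0 and 0.426 CPM in heterozygous and 0.270, 1.14 and 0 CPM in homozygous pools. The E homozygous pools 1 and 2 were above E wt pool 1 for Afp, unlike for most of the genes. Trf encodes transferrin, the iron carrier. Trf was at 46.3, 12.5, 6.92 and 4.44 CPM in E wt, 2.97, 1.27, 0 and 1.44 CPM in E heterozygous and 8.75, 17.0, 0.691 and 1.87 CPM in E homozygous pools. Its ExE values were 12, 0.332, 0.119 and 0 CPM in wt, 0.438, 4.16, 1.67 and 2.88 CPM in heterozygous and 0, 5.24 and 1.01 CPM in homozygous pools. All E wt pools thus exceeded all E heterozygous pools. Rbp4, which encodes the plasma carrier of retinol, was at 12.2, 1.76, 2.17 and 0.296 CPM in E wt, 1.81, 2.07, 2.29 and 1.97 CPM in E heterozygous and 10.5, 15.3, 2.07 and 0.170 CPM in E homozygous pools. In ExE, Rbp4 was at 6.84, 2.10, 3.68 and 1.62 CPM in wt, 3.40, 5.16, 0.781 and 7.35 CPM in heterozygous and 2.97, 12.8 and 3.65 CPM in homozygous pools, so that every ExE library held some. Ttr, the carrier of thyroid hormone, peaked at 30.1 CPM in E wt pool 1 and at 10.2 CPM in ExE wt pool 1.

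The make-up of the visceral endoderm RNA could be compared in the 5 libraries with at least 1000 summed counts of the 29 genes: E wt pools 1 and 4, E homozygous pools 1 and 2 and ExE wt pool 1. Dab2 made up 26.6%, 28.2%, 33.7%, 29.1% and 28.9% of the sum in these, in that order. Apoa1 was the second gene in all 5, at 8.31%, 11.5%, 8.90%, 16.6% and 12.4%. Between any 2 of the 5 libraries, 12.1% to 19.6% of the counts would have to be placed on another gene to make them alike. The genes that differed most in share were of all roles. Afp was at 1.46% in E wt pool 1 (exact 95% binomial interval 1.23% to 1.71%) and 6.16% in E homozygous pool 1 (5.44% to 6.94%). Apoc2 was at 4.54% (4.15% to 4.96%) and 0.594% (0.381% to 0.882%) in the same libraries. Dpp4 was at 2.93% (2.61% to 3.27%) in E wt pool 1 and 0.614% (0.398% to 0.905%) in ExE wt pool 1, and Apob at 3.53% and 8.08%. These intervals cover counting error only, and no library has a replicate of its own.

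**Figure D4:**
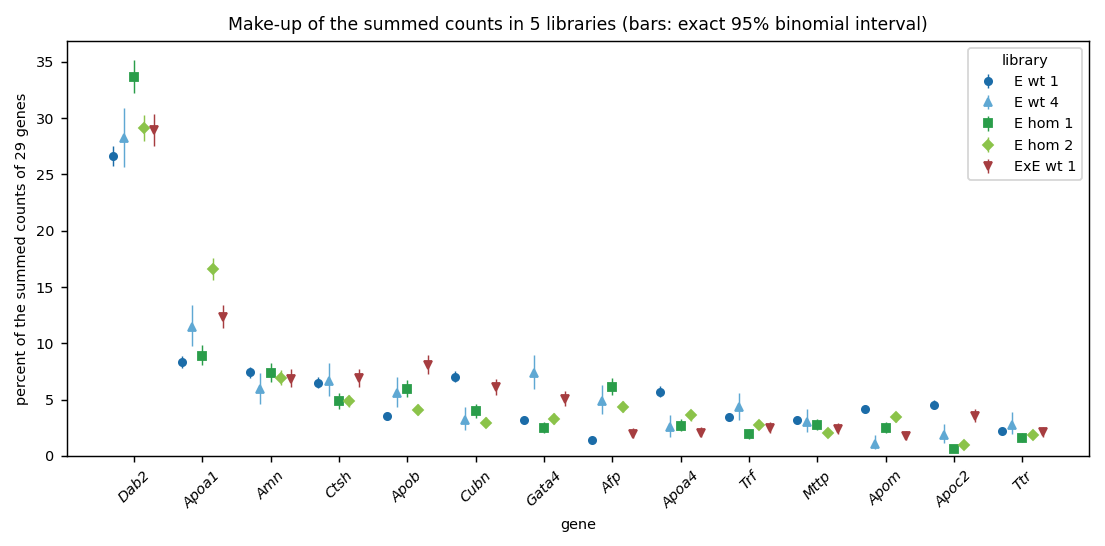
Share of the summed counts of 29 genes that falls on each of the 14 genes shown, in the 5 libraries with at least 1000 such counts, in percent, with exact 95% binomial intervals as bars. Dab2 holds 26.6% to 33.7% and Apoa1 8.31% to 16.6% in these libraries, while Afp, Apoa4, Apoc2 and Apob change places.

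Ratios between single libraries show the same spread. ExE wt pool 1 is the partner of E wt pool 1 by number. Of 28 genes with more than 3 counts in both, 27 were higher in the E pool, with a median ratio of 2.97. The ratios ran from 0.940 for Cited1 to 13.2 for Dpp4, with Apoa4 at 7.67, Apom at 6.51, Dab2 at 2.55, Gata4 at 1.75 and Apob at 1.21. Between E wt pool 1 and E homozygous pool 2 the median ratio was 2.61, from 0.527 for Lrp2 to 11.3 for Cited1, with Apoc2 at 10.7. E homozygous pool 1 was higher than E homozygous pool 2 in 5 of 28 genes, with a median ratio of 0.712.

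The comparison of ExE with E asks which genes mark either compartment, and few of the 32 passed it. Lrp2 fell from E to ExE in all 3 genotypes. Cited1 rose in heterozygous and homozygous embryos, and Apoe in heterozygous embryos. In wt, 1 of the 32 genes was called (adjusted p under 0.05 by edgeR's quasi-likelihood test, adjusted over all 13595 genes tested), as were 17.3% of all genes. In heterozygous embryos 3 were called, against 27% of all genes, and in homozygous embryos 2, against 16.8%. Of the 32 genes, 29 passed the filter on low counts in these fits, all but S100g, Alb and Fga. Their median log2 fold change was -1.54 for wt, 0.18 for heterozygous and -2.52 for homozygous embryos, against -0.01, -0.05 and 0.00 over all genes tested.

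For Lrp2 the means were 63.5 ± 18.0 CPM (SD, n = 4) in E wt and 11.7 ± 14.7 (n = 4) in ExE wt, which is -2.44 ± 0.71 as a log2 fold change (SE, edgeR adjusted p = 0.0198). In heterozygous embryos Lrp2 fell from 85.4 ± 16.9 to 3.48 ± 2.18 CPM (n = 4 each), by 4.60 ± 0.79 on the log2 scale (edgeR adjusted p = 0.000173). In homozygous embryos it fell from 90.8 ± 30.0 (n = 4) to 11.2 ± 10.2 CPM (n = 3), by 3.01 ± 0.81 (edgeR adjusted p = 0.0141). Cited1 rose in heterozygous embryos from 13.4 ± 19.2 to 100.1 ± 19.3 CPM (n = 4 each), by 2.94 ± 0.93 on the log2 scale (edgeR adjusted p = 0.0224). In homozygous embryos Cited1 went from 11.4 ± 7.75 (n = 4) to 130 ± 112 CPM (n = 3), up by 3.52 ± 0.99 on the log2 scale (edgeR adjusted p = 0.0171). In wt, where E pool 1 held 53.9 CPM, the change in Cited1 was 2.16 ± 0.90 (edgeR adjusted p = 0.105). Apoe was at 242 ± 156 and 620 ± 68.7 CPM in heterozygous E and ExE (n = 4 each), up by 1.36 ± 0.43 on the log2 scale (edgeR adjusted p = 0.0214), and the changes in wt and homozygous embryos were 0.99 ± 0.42 (0.115) and 1.18 ± 0.45 (0.0754).

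These counts depended on single libraries and on whether the pool number was used as a block. Per the labels, E and ExE pools share litters in 3 of 4 pools, so 1 of the 4 shared wt numbers may not be a true pair, and which one is not stated. With the pool number as a block and all shared numbers taken as pairs, 6 of the 32 genes were called in wt: Apoe and Cited1 rose, and Apoa4, Dab2, Lrp2 and Trf fell in ExE. In that blocked fit 5 were called in heterozygous embryos (Amn, Apoe, Cited1 and Ctsh up, Lrp2 down) and 5 in homozygous embryos (Apoe and Cited1 up, Dab2, Hnf4a and Lrp2 down). A pool without a partner of its number adds nothing to the tissue contrast there. Such pools were E heterozygous 4, ExE heterozygous 1 and E homozygous 2. Without the 3 libraries in which short transcripts read high, E heterozygous pool 4 among them, edgeR called the same 5 genes in heterozygous embryos. The part of pairing apart from the loss of these pools was not tested. The blocked log2 fold change of Dab2 was -2.34 in wt (adjusted p = 0.00712) and -2.11 in homozygous embryos (0.042). Without ExE wt pool 1, 8 genes were called in wt, all lower in ExE: Apoa4, Apob, Cubn, Dab2, Gata4, Lrp2, Soat2 and Trf. Dab2 then stood at -4.18 on the log2 scale (edgeR adjusted p = 0.00722). Without both wt pools numbered 1, a setting chosen after the data were seen, 7 were called: Apoe and Cited1 up, and Apob, Cubn, Dab2, Lrp2 and Trf down. Apoa4, Gata4 and Soat2 were called without ExE wt pool 1 alone and not in this setting. Without E wt pool 1 alone, 3 were called in wt, and without E wt pool 4, ExE wt pool 4 or ExE wt pool 5, 0 were. The calls of Cited1 and Apoe in heterozygous embryos were lost without E heterozygous pool 2, 3 or 5 (adjusted p = 0.0642 to 0.0708 and 0.0694 to 0.0723). In homozygous embryos Cited1 was lost without E pool 2, E pool 4 or ExE pool 3 (adjusted p = 0.0554, 0.0542 and 0.0887), and Lrp2 without ExE pool 1 (0.0599).

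Complete separation of the CPM of the 2 tissues gave similar names. In wt, 1 of the 32 genes (Cited1) lay wholly higher and 2 (Lrp2 and Apoa2) wholly lower in ExE, against 14.3% and 13.8% of all genes tested. In heterozygous embryos Cited1, Ctsh and Apoe were wholly higher and Lrp2 wholly lower, against 14.3% and 15.4%. In homozygous embryos Cited1 and Apoe were wholly higher and Sox17, Lrp2, Dab2, Npnt and Apoa4 wholly lower, against 11.2% and 12.1%. Some margins were small, between the lowest value of the higher and the highest of the lower tissue. They were 0.659 and 0.443 CPM for Apoa2 in wt and 3.62 and 3.34 CPM for Ctsh in heterozygous embryos. For Apoa4 in homozygous embryos they were 0.679 and 0.629 CPM.

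Whether the Tet1 genotype changes these genes was asked within each tissue, and 0 of the 32 genes was called by edgeR in any of the 6 comparisons. In E, 28 of the 32 passed the filter on low counts, all but S100g, Alb, Fga and Fgb. In heterozygous against wt E, 0% of the 12405 genes tested were called. At an unadjusted p under 0.05, 18 of the 32 were lower and 0 higher in heterozygous E, against 1.48% and 0.927% of all genes, and the lowest edgeR adjusted p was 0.982. Of the 28, 26 had a negative log2 fold change, and their median was -3.26, against 0.00 over all genes. Most of these genes rose and fell together over the same few libraries. Counts of them, here and in the comparisons below, are therefore not counts of independent genes. DESeq2 called 2 genes, Afp and Apob, both lower in heterozygous E (adjusted p = 0.0056 and 0.0285), and limma-voom called 0. Without E wt pool 1, the library with the highest summed level, 6 of the 32 had an unadjusted p under 0.05. The log2 fold change without it was -1.47 for Dab2, against -3.13 with it, and 0.07 for Sox17.

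Cubn, Dab2, Apob, Afp and Trf were lower in every heterozygous than in every wt E pool, which was so for 1.51% of all genes, and 0 of the 32 were wholly higher (1.29%). For Cubn the margin was small, at 1.32 CPM in the lowest wt and 1.06 CPM in the highest heterozygous pool. Afp and Hnf4a, without a count in the 4 heterozygous E pools, were at least 15.1-fold and 13.1-fold lower than the wt means of 7.99 and 6.90 CPM, with 3 counts in 1 library as the limit. The wt mean of each rests largely on pool 1, at 19.7 and 25.1 CPM.

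In homozygous against heterozygous E, 0% of genes were called, and 12 of the 32 were higher and 0 lower at an unadjusted p under 0.05, against 1.43% and 1.05% of all genes. The lowest edgeR adjusted p was 1, DESeq2 called Afp and Apob as higher in homozygous E (adjusted p = 0.000803 and 0.0481), and limma-voom called 0. Afp, without a count in heterozygous E, was at least 26.8-fold higher in the homozygous E mean of 14.1 CPM, with 3 counts in 1 library as the limit. That mean rests largely on pools 1 and 2, at 27.9 and 26.9 CPM, while pools 3 and 4 were at 0.691 and 1.02 CPM. Sox17, Cubn, Apoa4 and Afp were higher in every homozygous pool, against 1.04% of all genes, and 0 were wholly lower (0.897%). The margins were small. For Apoa4 the lowest homozygous value was 0.679 CPM (4 counts) and the highest heterozygous value 0.657 CPM (5 counts). For Cubn these values were 1.38 and 1.06 CPM, for Sox17 3.63 and 2.11 CPM, and for Afp 0.691 CPM (4 counts) and 0. Without E homozygous pool 1 or pool 2, 8 and 7 of the 32 had an unadjusted p under 0.05. In homozygous against wt E, 0.0161% of genes were called, 0 of the 32 had an unadjusted p under 0.05 (4.19% of all genes; 3 of the 32 without E wt pool 1), and DESeq2 and limma-voom called 0. The 28 genes had a median log2 fold change of -0.47, with 8 positive and 20 negative, and no gene of the 32 lay wholly higher or wholly lower (2.37% and 1.97% of all genes). The heterozygous comparisons share their pools, so they are not independent of each other.

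In ExE, 17 of the 32 passed the filter on low counts, and 0% of the 12355 genes tested were called in each of the 3 genotype comparisons. At an unadjusted p under 0.05, Dab2 and Apoa1 were lower in heterozygous than in wt ExE (log2 fold changes -2.55 ± 0.99 and -3.38 ± 1.54, edgeR adjusted p = 1 for both), against 3.12% of all genes. Without ExE wt pool 1 the log2 fold change of Dab2 was 0.08. Homozygous against wt and homozygous against heterozygous ExE gave 0 of the 32 at that level, against 7.57% and 6.48% of all genes, and without ExE wt pool 1 homozygous against wt gave 2. DESeq2 and limma-voom called 0 in the 3 comparisons, and no gene of the 32 separated any 2 ExE genotypes. Of all genes, 1.63% lay wholly higher and 1.99% wholly lower in heterozygous than in wt ExE. The shares were 3.01% and 2.63% for homozygous against wt and 3.44% and 2.47% for homozygous against heterozygous ExE. The difference of the genotype effect between the tissues was called for 0 of the 32 and 0% of all genes by edgeR, for heterozygous and for homozygous embryos. DESeq2 and limma-voom called 0 of the 32 as well. At an unadjusted p under 0.05 it gave 3 of the 32 for heterozygous (5.27% of all genes) and 0 for homozygous embryos (3.06%). These counts rest on the wt pools numbered 1: without ExE wt pool 1 they were 10 and 3, without E wt pool 1 they were 0 and 7, and without both they were 5 and 2. The count for heterozygous embryos was also 0 without E heterozygous pool 2.

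Markers of neighbouring cell types were measured beside these genes. A list of 38 further visceral endoderm genes had a mean log2 CPM of 2.61 in E wt pool 1, 1.85 and 1.78 in E homozygous pools 1 and 2 and 1.84 in ExE wt pool 1. It lay between 0.20 and 1.05 in the other 9 E and between 0.18 and 1.27 in the other 10 ExE libraries, so the same 4 libraries stood above the rest. Clic6, an intracellular chloride channel gene of that list singled out with its values in view, was at 57.2 CPM in E wt pool 1 and 54.8 CPM in E homozygous pool 2. Of the 28 tested genes of that list, 3 were called higher and 3 lower in ExE than in E in wt, against 17.3% of all genes. In heterozygous embryos 4 and 4 were called (27% of all genes), and in homozygous embryos 2 and 4 (16.8%). By sign alone, 8 were higher and 20 lower in wt, 14 and 12 in heterozygous and 9 and 19 in homozygous embryos. Emb, an immunoglobulin-family surface protein, had log2 fold changes of -1.50, -1.85 and -1.83 (edgeR adjusted p = 0.0015, 0.000105 and 0.000974), and Rhox5, a homeobox gene, of 4.03, 3.98 and 3.95 (0.0108, 0.00704 and 0.015). The 11 anterior visceral endoderm genes had another order, with 3.30 and 3.84 in E homozygous pools 1 and 2, 2.49 in E wt pool 1, 0.72 to 2.26 in the other 9 E libraries and 1.96 in ExE wt pool 1. Cer1, a secreted inhibitor of Nodal signals also singled out with its values in view, was at 9.98 and 23.5 CPM in E homozygous pools 1 and 2 but at 1.71 CPM in E wt pool 1. Otx2, a homeobox gene also active in the epiblast, fell from E to ExE in all 3 genotypes (log2 fold changes -2.55, -4.20 and -2.53, edgeR adjusted p = 0.0064, 8.54e-05 and 0.0148). No gene of either list was called in any genotype comparison by edgeR.

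**Figure D5:**
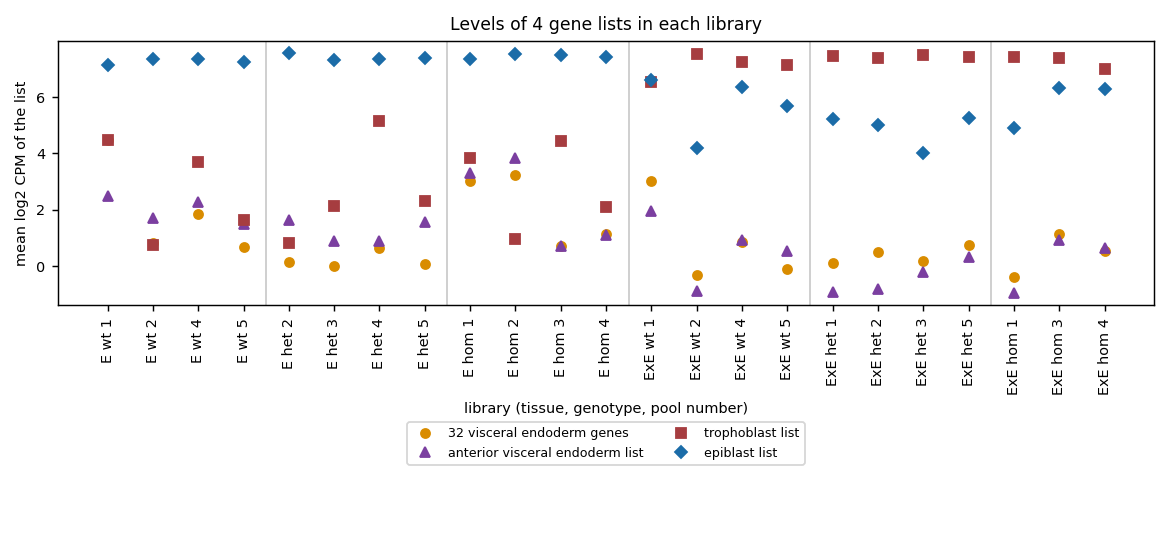
Mean log2 CPM of 4 gene lists in each library: the 32 visceral endoderm genes, 11 anterior visceral endoderm genes, 15 trophoblast genes and 12 epiblast genes. The visceral endoderm list is at 4.49 in E wt pool 1 and 3.01 to 3.25 in E hom 1, E hom 2 and ExE wt 1, and in ExE wt 1 the epiblast and trophoblast lists meet at 6.61 and 6.55.

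The parietal endoderm list, of 13 genes, was at 3.77, 4.37 and 3.94 in E wt pool 1 and E homozygous pools 1 and 2, against 2.25 to 3.52 in the other E libraries. The maternal decidua list was at 1.69 in E homozygous pool 1, against -0.63 and -0.35 in E wt pool 1 and E homozygous pool 2 and -0.46 to 0.62 in the other 9 E libraries. The blood list was at -1.04, -0.20 and -0.66 in E wt pool 1 and E homozygous pools 1 and 2, against -1.85 to -0.66 in the other 9, so both lists were highest in E homozygous pool 1 among the E libraries. The part of these cell types in the levels of the 32 genes was not tested.

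Outside the lists, the 8 genes whose log2 CPM was most like the mean of the 32 over the 12 E libraries, among 11155 ranked, were Npl, Tmprss2, Reep6, Sgk3, Lcp1, Prss12, Dgkk and H6pd. Npl, an enzyme of sialic acid breakdown, had a Pearson r of 0.95 over these libraries, which share their tissue and processing, and the eighth, H6pd, had 0.83. Npl was at 52.5 CPM in E wt pool 1, 11.9 and 9.79 CPM in E homozygous pools 1 and 2, 0.576 to 2.38 CPM in the other 9 E libraries, 8.04 CPM in ExE wt pool 1 and 0 to 0.877 CPM in the other ExE libraries. It thus stood high in the same 4 libraries. Tmprss2, a transmembrane serine protease, was at 40.9, 17.4 and 30.6 CPM in the 3 high E libraries and 2.12 to 12.5 CPM in the other E libraries. In ExE it was at 35.1 to 63.3 CPM in all libraries other than wt pool 1, which had 58.0 CPM.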

How the data were processed

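The table deposited by the authors holds raw read counts per gene for 23 libraries. Per the labels' protocols, RNA of each pool was amplified and sequenced as single-end reads. Per the submitters' processing notes, the tools were FastX 0.0.13, cutadapt 1.7.1, ShortRead 1.16.3 and TopHat2 2.0.12 on mm10/GRCm38. The counting program, its annotation and its use of strand were not stated in any label or header used here, so reads of overlapping or antisense genes cannot be told apart. Of 23725 gene lines, 27 carry a date in place of a symbol and 4 share a symbol.

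Counts were scaled by TMM and tested with edgeR 4.0.16 (R 4.3.3), glmQLFit and glmQLFTest, two-sided, after filterByExpr (minimum count 10, minimum total 15). Tissues and interactions were tested in 1 fit of 23 libraries (13595 genes) and genotypes in 1 fit per tissue (12405 genes in E, 12355 in ExE). A call is a Benjamini-Hochberg adjusted p under 0.05 over all genes of the fit. Log2 CPM used a prior count of 2. Alternatives were DESeq2 1.42.0, limma-voom (3.58.1), other scaling, no filter, a block by pool number and leaving out libraries. The edgeR step was checked on simulated counts, with 100 changed genes for each fold and tissue. For E homozygous against wt, 94% of 4-fold and 33% of 2-fold changes were called, and for ExE 97% and 44%. These rates were not taken by expression level or for the visceral endoderm genes, many of which were low in most libraries. They therefore do not show how large a change in these genes would have been called. Any 2 libraries of 1 group differed beyond sampling noise, as chi-square over degrees of freedom lay between 12.3 and 118, so none was merged.

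Pool numbers pair E with ExE because the labels give shared litters, in 3 of 4 pools. Deviations of E and ExE pools of 1 number from their group means correlated at -0.041 to 0.46. The 32 genes, the lists and the comparisons were chosen with earlier results of these data known. Values in every library are given for the 3 genes with the highest mean CPM in each of 4 roles, and fold changes with SE for up to 6 called genes per direction; other named genes were chosen after their values were seen, except the 8 genes most like the list and up to 3 genes of smallest p per other list. Symbols were matched to GENCODE M21 for 98.5% of lines, and upstream bases are from RefSeq on GRCm38.p6.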

Additional observations from a re-analysis of the deposited data

Results flagged for a closer look

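Each group of 4 libraries was examined for a library far from the other 3, by the gap to its nearest neighbour over the range of the group. In all, 64 groups were examined and 21 were flagged, while chance flags about 1 in 20 groups of normally distributed values. CPM of genes with few counts are not so distributed. A group with counts in only 1 library is always flagged, so the rate does not hold for such groups. Genes of 1 library share its RNA, so these are not independent.

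E wt pool 1 lay far above the other wt E pools for Dab2 (361 CPM, others 33.2 to 45.3), Apoa1 (113, others 3.55 to 18.4), Amn (101, others 3.70 to 9.49), Cited1 (53.9, others 1.63 to 5.97), Apob (47.9, others 6.26 to 9.62), Sox17 (21.3, others 0 to 2.17) and Rbp4 (12.2, others 0.296 to 2.17). Lrp2 went its own way, with E wt pool 4 apart at 90.5 CPM and the others at 53.1 to 56.3.

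ExE wt pool 1 lay far above the other wt ExE pools for Dab2 (141 CPM, others 1.44 to 9.62), Apoa1 (60.5, others 0 to 6.53), Apob (39.5, others 0 to 0.356), Gata4 (24.7, others 0 to 1.66), Trf (12, others 0 to 0.332) and Sox17 (7.08, others 0 to 0.95). The epiblast list was also higher and the trophoblast list lower in this pool than in the other ExE libraries.

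Among heterozygous E pools, pool 4 was apart for Apoe (476 CPM, others 159 to 173), Cited1 (42.1, others 1.91 to 4.84), Amn (10.0, others 1.81 to 3.15) and Apob (0.352, which is 2 counts, others 0), and pool 3 for Dab2 (27.4, others 7.92 to 9.67). Among heterozygous ExE pools, pool 3 was apart for Gata4 (6.36 CPM, others 1.86 to 2.52) and pool 5 for Sox17 (0.213, which is 2 counts, others 0).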

How the results depend on the processing

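No gene called in the main fits changed direction in any alternative run. Of the alternative counts of called genes, 165 stayed within 1.5 times the main count, while 23 did not. Genes not called were left out of the check of direction. Among these, the log2 fold change of Sox17 in heterozygous against wt E changed sign without E wt pool 1. For ExE against E in wt (1 gene called), limma-voom called 4, the replicate block 6, the fit without the 3 libraries with steep length slopes 3, and the fit without both wt pools numbered 1 called 7. Leaving out 1 library gave 0 to 8. In heterozygous embryos (3 called) the replicate block gave 5, the fit without the 3 steep libraries 5, and leaving out 1 library 1 to 4. In homozygous embryos (2 called) DESeq2 gave 5, the replicate block 5, the fit without both wt pools 5, and leaving out 1 library 1 to 4. Within E, DESeq2 called 2 genes in heterozygous against wt and 2 in homozygous against heterozygous. Leaving out 1 library gave 0 called genes in every genotype comparison and interaction. The cause of these shifts was not tested.

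Genotypes within a tissue share only a pool number. The replicate block called 0 there too, and it left 5 genes at an unadjusted p under 0.05 in heterozygous against wt E and 6 in homozygous against heterozygous E, against 18 and 12 without it. Deviations of same-numbered pools correlated at -0.354 to 0.197 in E and at -0.121 to 0.009 in ExE. Of the values for single genes and list levels, 124 stayed as they were, 13 calls were lost on leaving out 1 library and 10 list levels moved, for example to -0.63 in heterozygous E with a prior count of 0.5. At 3 counts the limit is 0.312 to 0.684 CPM, so many of these genes were at the edge of detection in most libraries.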
